A study of Mus musculus with 10 samples.

Results

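The expression of 39 imprinted genes that lie outside the *Igf2*-*H19* locus was followed in mouse ES cells (mESCs) in which *Hottip* or *Hoxa13* was targeted for activation, to see whether the rise of *Igf2* on these arrays was part of a wider change among imprinted genes. Members were the probes whose transcript accession belonged to one of the 39 listed genes. On the array, 37 of the 39 genes had a probe, with 59 of the 55681 probes in all. *Meg3* and *Rian* were matched to no probe and are not analysed here, and the same holds for *H19* in the reference locus.

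An imprinted gene is expressed mainly or only from the copy inherited from one parent. The choice is set by DNA methylation laid down in the egg or sperm at an imprinting control region, which acts on several neighbouring genes, so imprinted genes lie in clusters that hold paternally and maternally expressed members. Many of these genes act on fetal and placental growth, and mESCs can lose imprints in culture. The arrays measured total RNA of each gene and do not tell one parental copy from the other.

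All samples were E14 mESCs, an established line of 129/Ola origin, grown with serum and Lif, transfected, selected for 24 h with puromycin at 2 ug/ml and harvested 48 h after transfection. In the Hottip gRNA group (4 arrays), a pool of 5 guide RNAs for the *Hottip* promoter was given with dCas9-VP160, a Cas9 that cannot cut, fused to a synthetic transcriptional activator. The Hoxa13 gRNA group (3 arrays) received a pool of 5 guides for the *Hoxa13* promoter with the same activator. The control (3 arrays) received control guides with dCas9 that lacked VP160, so an effect of the activator domain cannot be told apart from one of the guides. Each sample was a transfected population of one cell line, hybridised to its own 1-colour array. *Hottip* itself was matched to no probe.

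Expression levels are given as log2 of the background-subtracted signal minus the 75th percentile of the same array, so that 0 is the 75th percentile of that array. Levels of different probes have no common scale, and only the same probe is compared between groups. The targeted gene *Hoxa13* went against one label. It stood at 3.60, 4.16, 3.88 and 3.17 on the Hottip gRNA arrays and was well above background on each. On the arrays labelled Hoxa13 gRNA it read -3.68, -4.80 and -4.31, and in control -5.84, -5.00 and -3.46, and it was not well above background on any of these 6. These samples are therefore called the arrays labelled Hoxa13 gRNA, and no direction drawn from them is a direction of *Hoxa13* activation. The ES cell markers (*Pou5f1*, *Sox2*, *Nanog*, *Esrrb*, *Zfp42*, *Tdgf1*, *Fgf4*) passed the scanner's background test on all 10 arrays, 7 of 7. On the arrays labelled Hoxa13 gRNA all 7 read higher than in control, by a median of 1.05, beside 0.19 over all probes tested. In Hottip gRNA 4 were higher than in control and 3 lower, with a median of 0.18. None had an adjusted p under 0.05 (limma) in either comparison. Replicate 1 labelled Hoxa13 gRNA had the lowest 75th percentile of signal (586). The slope of log signal on the amount of added control RNA was 1.16 on it and 0.900 to 0.982 on the other arrays. With a steeper slope bright probes read higher relative to dim ones. The median over all probes is then not a full reference for bright genes, and the part of this slope in the differences of that group was not tested. The share of probes above background ran from 31.9% to 41.4% per array. Replicates 1 and 2 labelled Hoxa13 gRNA lay on 1 slide and the other 8 arrays on the second slide, so Hottip gRNA and control were compared within a slide.

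Of the 37 genes with a probe, 18 were well above background on all 10 arrays and 10 on 3 to 9 arrays. These 28 genes were tested. *Asb4*, *Dio3*, *Kcnq1* and *Magel2* were well above background on 1 or 2 arrays, and *Usp29*, *Zim1*, *Nap1l5*, *Nnat* and *Rasgrf1* on none, so no change in these 9 genes could be measured. Of the 28 tested genes, 6 passed the filter with fewer than 3 such arrays outside the Hottip gRNA group (*Peg10*, *Osbpl5*, *Peg12*, *Plagl1*, *Slc22a3* and *Dcn*). Where a low gene passes only through the group in which it is high, its difference is favoured by the filter, so counts over the tested members are descriptions. A gene with several probes is given by its brightest probe, and a spot marked as an outlier by the scanner software was left out, which took 20 of the members' values.

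The promoters of the members that differed in the test, *Ascl2* and *Peg12*, are shown with those of the nearest tested member of the same cluster. Each pair shares a domain but not a call. The windows run from 250 bases before to 50 bases after the start in the RefSeq annotation of GRCm38.p6. *Ascl2* lies at chr7:142969215-142969514 (minus strand), *Cd81* at chr7:143052500-143052799 (plus strand), *Peg12* at chr7:62464461-62464760 (minus strand) and *Mkrn3* at chr7:62420104-62420403 (minus strand). Each is written 5′ to 3′ on the strand of its gene, with CpG dinucleotides, the sites of DNA methylation, in capitals.
Ascl2: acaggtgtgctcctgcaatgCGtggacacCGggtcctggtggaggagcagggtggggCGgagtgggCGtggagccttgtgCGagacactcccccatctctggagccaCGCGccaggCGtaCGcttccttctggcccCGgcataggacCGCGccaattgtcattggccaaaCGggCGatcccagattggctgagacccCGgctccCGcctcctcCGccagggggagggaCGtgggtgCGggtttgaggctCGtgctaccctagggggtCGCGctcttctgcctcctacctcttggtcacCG
Cd81: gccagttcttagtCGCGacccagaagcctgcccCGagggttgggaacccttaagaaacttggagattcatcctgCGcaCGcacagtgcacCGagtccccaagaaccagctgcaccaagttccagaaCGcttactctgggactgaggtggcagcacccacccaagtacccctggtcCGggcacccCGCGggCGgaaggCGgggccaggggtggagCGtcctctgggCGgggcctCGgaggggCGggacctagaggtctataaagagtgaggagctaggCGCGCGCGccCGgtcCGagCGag
Peg12: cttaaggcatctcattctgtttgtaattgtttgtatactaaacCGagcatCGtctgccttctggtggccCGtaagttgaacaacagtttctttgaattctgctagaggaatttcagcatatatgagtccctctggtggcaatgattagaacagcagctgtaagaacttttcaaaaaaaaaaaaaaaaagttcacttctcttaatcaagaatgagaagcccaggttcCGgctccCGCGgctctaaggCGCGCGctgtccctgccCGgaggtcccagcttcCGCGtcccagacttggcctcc
Mkrn3: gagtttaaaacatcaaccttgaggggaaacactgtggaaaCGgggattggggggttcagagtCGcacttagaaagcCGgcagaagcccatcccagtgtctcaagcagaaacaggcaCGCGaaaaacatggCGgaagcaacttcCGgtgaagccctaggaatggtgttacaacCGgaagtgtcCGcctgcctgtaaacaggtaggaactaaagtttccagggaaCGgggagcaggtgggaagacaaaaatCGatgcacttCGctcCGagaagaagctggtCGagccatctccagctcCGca
The *Ascl2* and *Cd81* windows both held 23 CpG, a number that 21.5% of all 32851 windows reached or passed. *Peg12* held 12 (39.6% of windows) and *Mkrn3* 15 (34.6%). The hexamer TGCCGC, the core letters bound by ZFP57, was in none of the 4 windows on either strand. Of the members, 33 had a window, and the hexamer was in 12 of their 50 windows (24%) against 11.6% of all windows. The median window of a member held 14 CpG and the median of all windows 7. These are counts of letters and not measurements of methylation or binding.

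In the comparison of Hottip gRNA with control, 2 of the 28 tested members differed, and both rose. They were *Ascl2* in the *Kcnq1*-*Cdkn1c* cluster and *Peg12* in the *Snrpn*-*Ube3a* cluster, and each was the one called gene of its cluster (limma, Benjamini-Hochberg adjusted p under 0.05). Over all 22830 probes tested in this comparison, 0.718% were called in either direction. The median difference over the 28 members was 0.13 on the log2 scale, beside -0.03 over all probes tested, and 0.12 without *Ascl2* and *Peg12*. Above 0 were 22 members and below 0 were 6. The 2 groups did not overlap in 8 members, 6 higher in Hottip gRNA and 2 lower (28.6%), where 13.2% of all probes did not overlap. Neither figure is a test of the list, and 3 of the 8 (*Peg10*, *Osbpl5* and *Peg12*) had passed the filter with fewer than 3 arrays outside the Hottip gRNA group. In bulk RNA, a higher level in every cell and a high level in some of the cells cannot be told apart.

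The reference locus moved by far more. *Igf2* read 1.17, 0.92, 1.82 and 1.09 on the Hottip gRNA arrays and -5.83, -5.10 and -4.44 in control, where no array had it well above background. It was at least 26.3-fold higher (adjusted p = 0.000255, limma). Its antisense transcript *Igf2os* was at least 47.7-fold higher. Both had fewer than 3 arrays well above background outside the Hottip gRNA group. They passed the filter through the group in which they were high, so their tests are favoured by the filter. The neighbouring *Ins2* was too dim to test, at a difference of -0.03. Outside this locus, a log2 difference above 1 was seen in 6 of the 28 tested members and one below -1 in 1 of them. Among the 26 members that were not called, the 95% interval lay within 2 log2 units on either side of 0 in 17 and within 1 unit in 6, and the intervals leave room for smaller changes in most members. In 9 it reached past 2 units (*Peg3*, *Peg10*, *Sgce*, *Ppp1r9a*, *Calcr*, *Dlk1*, *Phlda2*, *Slc22a3* and *Dcn*).

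**Figure D1:**
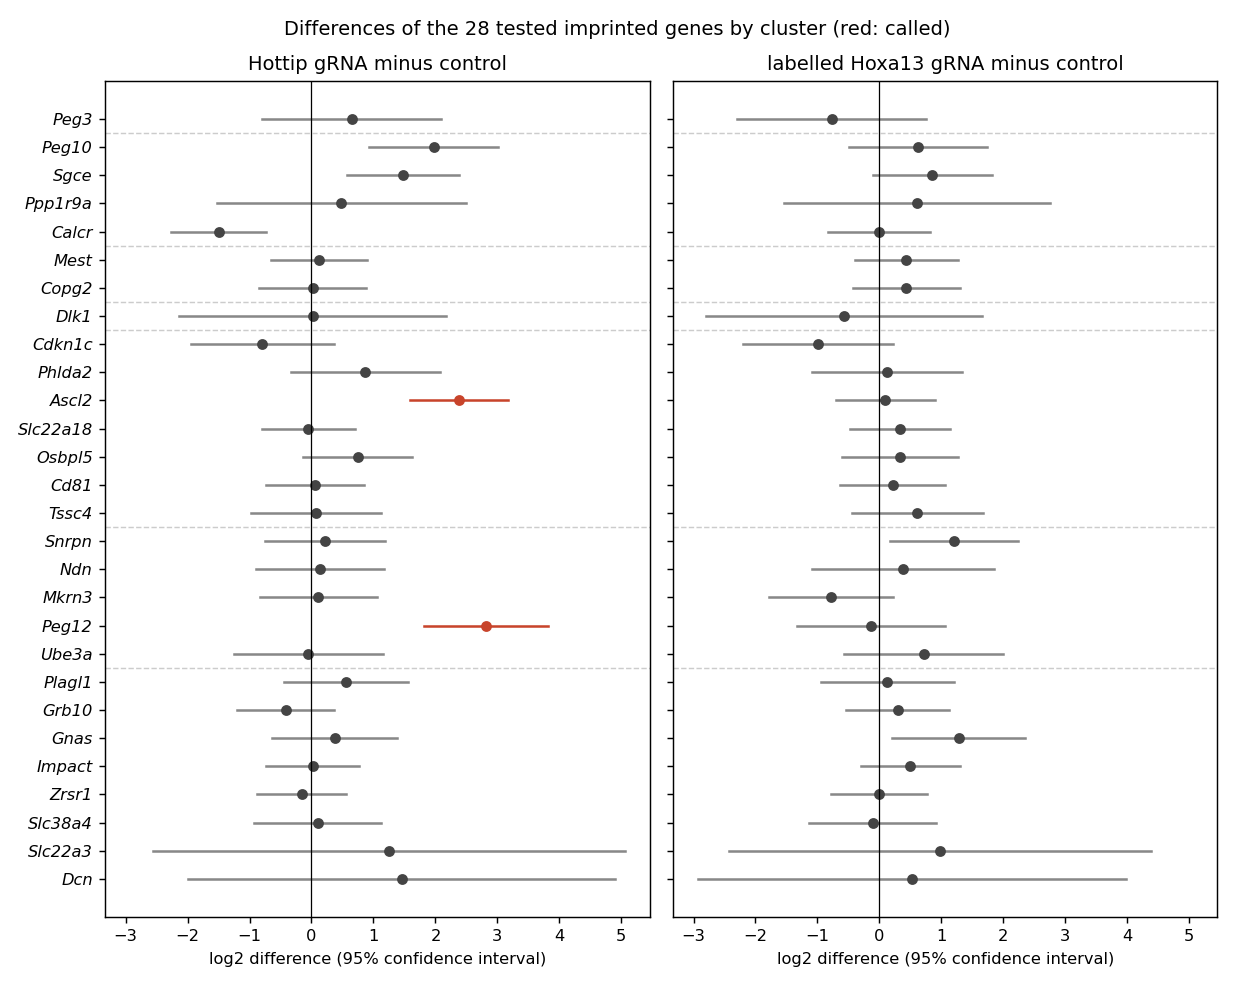
Log2 difference (x axis) of each of the 28 tested imprinted genes (y axis, dashed lines between clusters), Hottip gRNA minus control on the left and arrays labelled Hoxa13 gRNA minus control on the right, with bars for the 95% confidence interval of the limma fit. *Ascl2* (2.38) and *Peg12* (2.82) are called in the left panel and no gene in the right panel, and *Slc22a3* and *Dcn* have the widest intervals.

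The *Kcnq1*-*Cdkn1c* domain lies next to *Igf2* on distal chromosome 7. Its members are expressed mainly from the maternal copy and include the growth inhibitors *Cdkn1c* (the cyclin-dependent kinase inhibitor p57) and *Phlda2*. Of its 8 members, 7 were tested. The one that rose was *Ascl2*, which encodes a basic helix-loop-helix factor needed for the trophoblast of the placenta. *Ascl2* read 0.82, 1.51 and 1.20 on Hottip gRNA replicates 2, 3 and 4, while the spot of replicate 1 was left out as an outlier (1.41 if kept). Control read -0.95, -1.29 and -1.37, and the arrays labelled Hoxa13 gRNA -1.07, -1.07 and -1.19. Every Hottip gRNA value stood above every other value, by more than the spread within any group. The difference from control was 2.38 (SE 0.357, 95% interval 1.58 to 3.18, n = 3 and 3), or 5.21-fold, with an adjusted p of 0.0146 (limma). The two-sided exact permutation p was 0.1, the smallest that 3 arrays against 3 allow. The call was lost without control replicate 2 (2.34, adjusted p = 0.101), without Hottip gRNA replicate 3 (2.21, 0.0756) or without Hottip gRNA replicate 4 (2.37, 0.0597), while the difference stayed between 2.02 and 2.87 under all 29 alternatives.

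Markers of trophoblast moved with *Ascl2*. *Cdx2* (at least 13.3-fold), *Krt7* (at least 3.74-fold) and *Gata3* (2.72 on the log2 scale) were called higher in Hottip gRNA than in control, 3 of the 4 tested, and *Tfap2c* differed by 3.28 with an adjusted p of 0.115. No control array had *Cdx2* or *Krt7* well above background, and both passed the filter through the Hottip gRNA arrays, so their folds are lower bounds and their calls are favoured by the filter. *Elf5*, *Hand1*, *Tpbpa* and *Prl3d1*, the other 4 of the 8 markers, were well above background on no Hottip gRNA array. Summed over the 8 markers, with the 75th percentile of an array as 1, the level was 2.31 to 12.7 on the Hottip gRNA arrays, 0.854 to 1.98 in control and 1.42 to 3.09 on the arrays labelled Hoxa13 gRNA. In Hottip gRNA 1 marker value was an outlier spot and was left out. The sum of that array is therefore too low, and the ranges are not fully comparable. Between the arrays labelled Hoxa13 gRNA and control, 0 of the 4 tested were called, the highest difference being 1.30 for *Tfap2c*. Markers of 3 other lineages had no call between Hottip gRNA and control. In extraembryonic endoderm 4 tested genes were higher and 1 lower, in mesenchyme 2 and 1, and in neural cells 1 and 3. The endoderm differences ran from -3.35 (*Dab2*) to 1.66 (*Gata6*). Summed in the same way, the endoderm markers varied widely within control, from 3.11 to 82.5. Their sum was 5.09 to 9.36 in Hottip gRNA and 2.72 to 3.64 on the arrays labelled Hoxa13 gRNA. The control arrays were therefore not alike in these markers. The part of the trophoblast markers in the *Ascl2* result was not tested.

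The genes around *Ascl2* did not pass the test. *Cd81*, a tetraspanin, differed by 0.06 and *Tssc4* by 0.07, both well above background on all 10 arrays. *Cdkn1c* read 1.52, 2.69, 2.97 and 2.91 on the Hottip gRNA arrays, and 3.23 and 3.41 on the 2 control arrays used (3.02 on the third if kept). All Hottip gRNA values were below control, with a difference of -0.79 (adjusted p = 0.864). On the arrays labelled Hoxa13 gRNA *Cdkn1c* stood at 2.87, 1.81 and 2.29, also all below control. *Phlda2* differed by 0.87 (adjusted p = 0.845) with overlapping groups. *Osbpl5*, an oxysterol-binding protein relative, read -2.26, -2.05, -1.41 and -2.24 in Hottip gRNA, -3.10, -2.01 and -2.12 on the arrays labelled Hoxa13 gRNA, and -2.38, -2.81 and -3.01 in control. Its difference from control was 0.74 (adjusted p = 0.748), with no overlap, but it was well above background on 2 of 4 and 1 of 3 arrays. *Slc22a18*, a transporter, differed by -0.05. The median over the 7 tested members was 0.07.

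**Figure D2:**
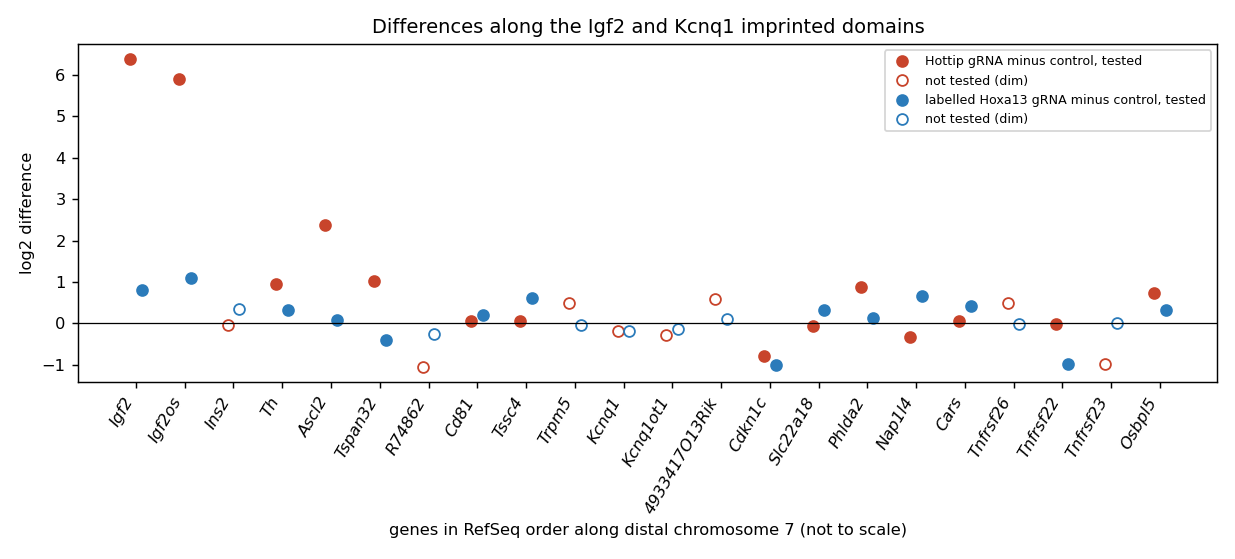
Log2 difference (y axis) of the genes in RefSeq order along distal chromosome 7 (x axis, not to scale), Hottip gRNA minus control in red and arrays labelled Hoxa13 gRNA minus control in blue, with open points for probes too dim to test. *Igf2* (6.37) and *Igf2os* (5.91) stand highest, *Ascl2* (2.38) is next, and *Cd81* (0.06) and *Tssc4* (0.07) lie near 0.

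Along this stretch of the chromosome, *Ascl2* lies between *Th* and *Tspan32*, which are imprinted genes outside the 39 members. *Th*, which encodes tyrosine hydroxylase, differed by 0.96 between Hottip gRNA and control (adjusted p = 0.330) and *Tspan32* by 1.02 (adjusted p = 0.731). Neither passed the test. Beyond them the tested genes, from *Cd81* to *Osbpl5*, ran between -0.79 and 0.87. The non-coding *Kcnq1ot1*, whose transcription silences this domain on the paternal copy, was too dim to test, as was *Kcnq1*.

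In the *Snrpn*-*Ube3a* cluster of central chromosome 7, the domain of the Prader-Willi and Angelman syndromes, 5 of 6 members were tested. *Peg12*, a paternally expressed gene related to the *Frat* activators of Wnt signalling, rose. It read -1.42, -0.75, -0.32 and -0.69 on the Hottip gRNA arrays and -2.84, -3.80 and -4.19 in control. The arrays labelled Hoxa13 gRNA read -4.10 and -3.40, and the outlier spot of replicate 2 would have read -1.32. All 4 Hottip gRNA arrays thus had *Peg12* well above background, as did 1 of 3 arrays in each of the other 2 groups, counting the outlier spot. The difference from control was 2.82 (SE 0.448, 95% interval 1.82 to 3.81, n = 4 and 3), with an adjusted p of 0.0198 (limma) and an exact permutation p of 0.0286, the smallest for 4 against 3. *Peg12* passed the filter through the group in which it was high, and 2 of its 3 control values lay below the lowest signal that was well above background on their arrays, so the size of the difference is not fully measured. Without the filter the adjusted p was 0.0465. The second probe of *Peg12* was well above background on no array. The call was lost without control replicate 2 (adjusted p = 0.128), Hottip gRNA replicate 2 (0.065), 3 (0.0756) or 4 (0.066), and also with outlier spots kept (2.82, 0.133), which changes the spread but not these 7 values.

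At their brightest probes, the other tested members of this cluster lay close to control. *Snrpn*, which encodes the spliceosomal protein SmN, read 3.02, 4.13, 4.13 and 3.57 in Hottip gRNA and 3.82, 3.85 and 2.80 in control, a difference of 0.22. *Mkrn3*, a makorin ring-finger gene beside *Peg12*, read -1.73, -1.86, -0.99 and -1.47 against -1.22, -1.90 and -1.75, a difference of 0.11. The second probe of *Mkrn3* read -1.42, -1.32 and -0.96 in Hottip gRNA, with replicate 4 left out, and -1.30, -2.03 and -4.39 in control. That probe was well above background on 2 Hottip gRNA arrays and 0 control arrays. *Ndn* (0.14) and *Ube3a* (-0.05), the ubiquitin ligase of the domain, also overlapped with control. With *Peg12* included, the median of the 5 genes was 0.14.

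**Figure D3:**
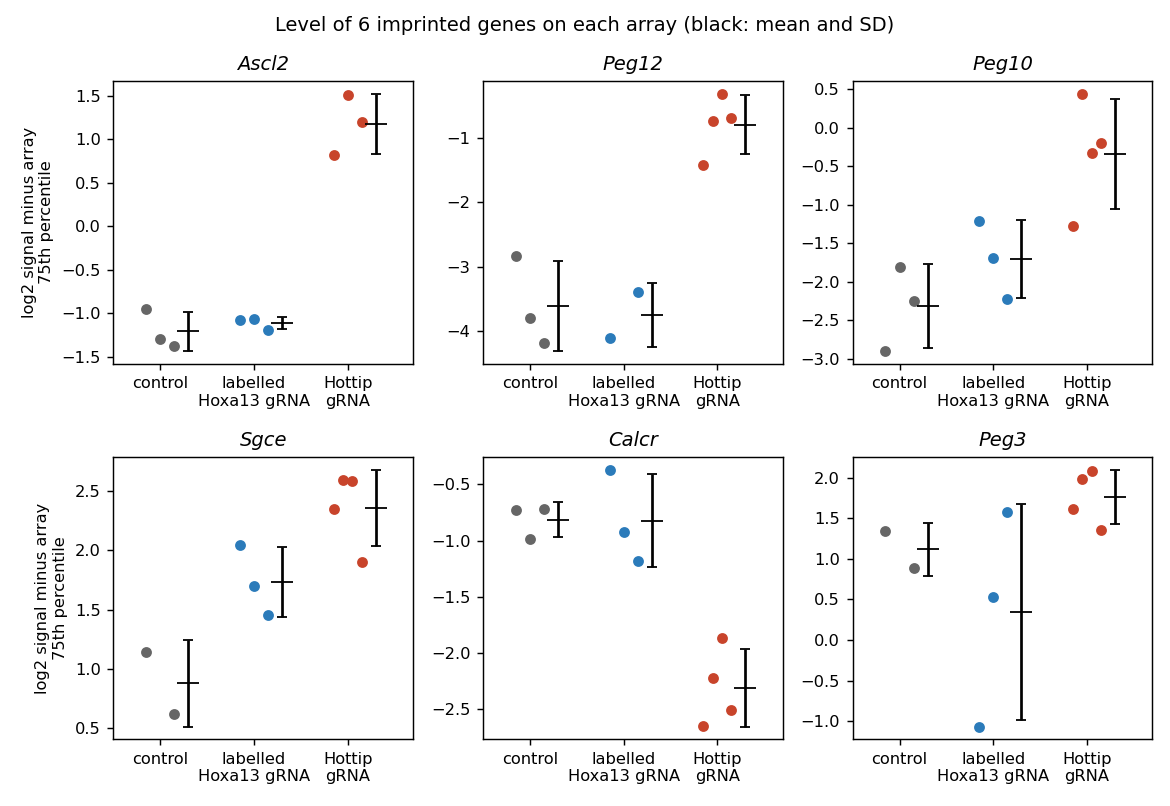
Level of 6 imprinted genes (y axis, log2 signal minus the 75th percentile of the array) on each control, labelled Hoxa13 gRNA and Hottip gRNA array (points), with the mean and SD of each group in black and outlier spots left out. *Ascl2* (0.82 to 1.51) and *Peg12* (-1.42 to -0.32) in Hottip gRNA lie above all other arrays shown, and *Calcr* (-2.65 to -1.86) lies below them.

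The *Peg10*-*Sgce* cluster of proximal chromosome 6 had no called gene among its 4 tested members, but 3 of them did not overlap with control. *Peg10*, a retrotransposon-derived gene needed in the placenta, read -1.28, 0.44, -0.33 and -0.19 in Hottip gRNA, -2.89, -1.81 and -2.25 in control, and -1.21, -1.69 and -2.22 on the arrays labelled Hoxa13 gRNA. The difference from control was 1.98 (SE 0.473, adjusted p = 0.123), and its second tested probe gave 1.72 (adjusted p = 0.213). *Sgce*, which encodes epsilon-sarcoglycan and shares its control region with *Peg10*, read 2.35, 2.59, 2.59 and 1.90 in Hottip gRNA and 1.14 and 0.62 on the 2 control arrays used (1.85 on the third if kept). The arrays labelled Hoxa13 gRNA lay between, at 2.04, 1.70 and 1.45. The difference of *Sgce* from control was 1.48 (SE 0.406, adjusted p = 0.226), and it was 0.55 after the local median brightness around each spot was subtracted. Both of these are paternally expressed. After quantile normalization the adjusted p was 0.0444 for *Peg10* and 0.0321 for *Sgce*, but *Peg10* was well above background on 3 Hottip gRNA arrays and 1 array of each other group and so passed the filter through the group in which it was high.

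*Calcr*, the calcitonin receptor gene at the edge of the same cluster, was the lowest of the 28 differences. It read -2.65, -2.23, -1.86 and -2.51 in Hottip gRNA, -0.73, -0.99 and -0.72 in control, and -0.37, -0.92 and -1.18 on the arrays labelled Hoxa13 gRNA. All 4 Hottip gRNA values were below the other 6. The difference from control was -1.50 (SE 0.350, adjusted p = 0.114), with an exact permutation p of 0.0286. It passed the test under 1 alternative, with the 75th percentile taken over probes detected on all arrays (-1.55, adjusted p = 0.0363). The fourth tested gene, *Ppp1r9a* (neurabin), differed by 0.48 with an interval of -1.53 to 2.49.

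Of the *Peg3* cluster, *Peg3* itself, a zinc-finger gene of chromosome 7, was tested. It read 1.62, 1.99, 2.09 and 1.36 in Hottip gRNA, 1.35 and 0.88 on the 2 control arrays used (-1.34 on the third if kept), and -1.07, 0.53 and 1.57 on the arrays labelled Hoxa13 gRNA. The difference from control was 0.65 (adjusted p = 0.980), although the 2 groups did not overlap. In the *Mest* cluster of chromosome 6, *Mest*, a paternally expressed growth gene, differed by 0.12 and *Copg2*, a coatomer subunit gene, by 0.02, and both were well above background on all 10 arrays. *Dlk1*, which encodes a Notch-ligand-like protein of chromosome 12, differed by 0.02, but 2 of its 3 control spots were outliers and its interval ran from -2.14 to 2.18.

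The remaining 8 tested members are imprinted genes placed in no cluster here, and none was called. *Gnas*, which encodes the stimulatory G protein alpha subunit, read 5.22, 5.54, 4.95 and 4.14 in Hottip gRNA, 6.41, 6.03 and 5.17 on the arrays labelled Hoxa13 gRNA and 4.20, 4.46 and 5.11 in control. *Grb10*, an adaptor that damps insulin and growth-factor signalling, read -0.74, -1.05, -1.14 and -1.13 in Hottip gRNA, 0.07, -0.86 and -0.11 on the arrays labelled Hoxa13 gRNA and -0.56, -0.93 and -0.31 in control. The Hottip gRNA and control values overlapped in both, with differences of 0.37 and -0.42. *Impact* (0.02), *Slc38a4* (0.10), *Zrsr1* (-0.16) and *Plagl1* (0.55) were closer to 0 or no larger than their spread.

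*Slc22a3*, an organic cation transporter gene, and *Dcn*, which encodes decorin of the extracellular matrix, had the widest spread of all members and were well above background on no control array. *Slc22a3* read 1.34 and -4.54 on Hottip gRNA replicates 2 and 3, with both other spots left out, -3.87, -0.79 and -0.94 on the arrays labelled Hoxa13 gRNA, and -2.49, -1.45 and -4.60 in control. The value -4.54 is the same as that of *Usp29*, *Zim1* and *Nap1l5* on this array. *Dcn* read -0.54, 2.07 and -3.86 in Hottip gRNA with replicate 4 left out, -3.79, -1.91 and 0.59 on the arrays labelled Hoxa13 gRNA, and -1.55, -0.86 and -4.29 in control. The 3 groups overlapped in both genes. The local median brightness around their spots was higher in Hottip gRNA than in control, by 1.06 for *Slc22a3* and 1.61 for *Dcn*, and after it was subtracted their differences from control were 0.87 and -0.16.

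**Figure D4:**
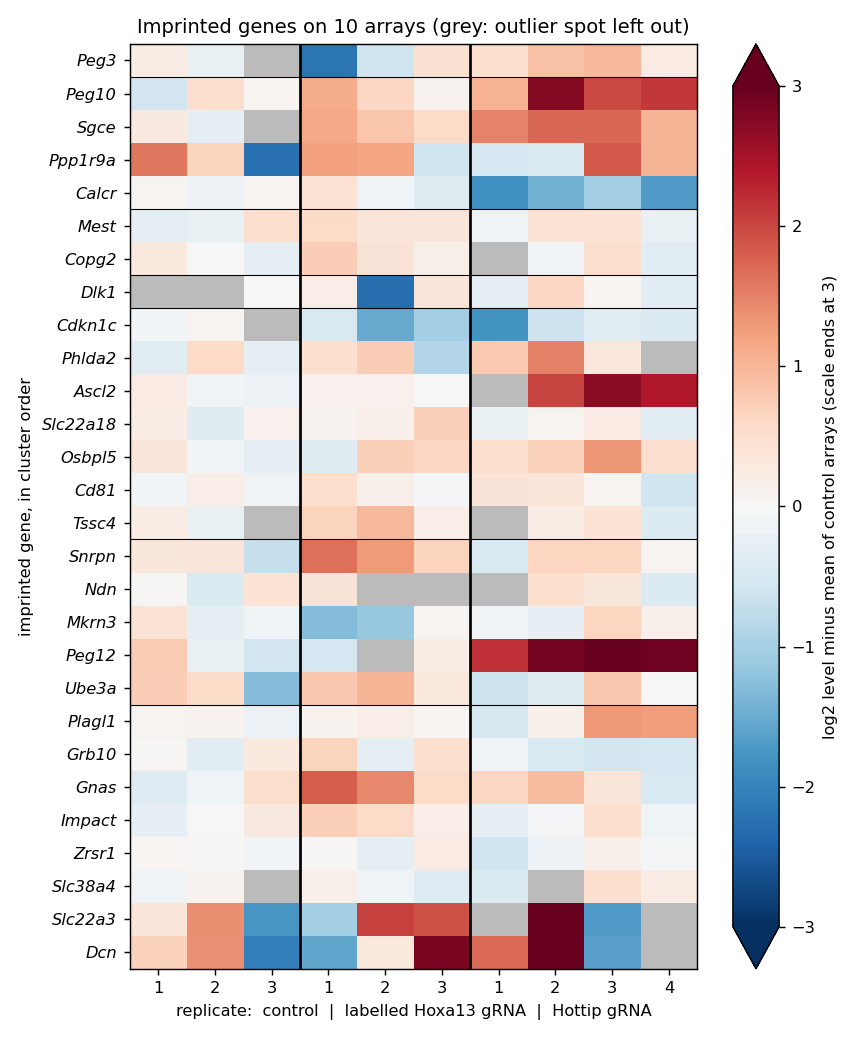
Level of the 28 tested imprinted genes (y axis, in cluster order) on each of the 10 arrays (x axis, by group and replicate), as log2 level minus the mean of the control arrays, with outlier spots in grey. *Ascl2* and *Peg12* are high on the Hottip gRNA arrays, *Calcr* is low on them, and *Snrpn* and *Gnas* lie above the control mean on all 3 arrays labelled Hoxa13 gRNA.

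Members were also grouped by the parental copy listed as expressed, which these arrays do not measure. Between Hottip gRNA and control, 1 of 13 tested members listed as paternal (*Peg12*) and 1 of 13 listed as maternal (*Ascl2*) were called. Over all probes tested, 0.718% were called. The median differences were 0.14 and 0.07. The 2 called genes were thus listed under opposite copies, and the copy expressed in these cells was not measured. *Grb10* and *Gnas*, which are expressed from either copy by tissue or by transcript, were left out of both groups.

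Between the arrays labelled Hoxa13 gRNA and control, 0 of the 28 tested members were called by limma, and 2 had an unadjusted p under 0.05, where 0.175% of all probes were called. The 2 were *Gnas* (1.28, SE 0.486, adjusted p = 0.447) and *Snrpn*, which read 5.15, 4.76 and 4.16 against 3.82, 3.85 and 2.80 (1.20, SE 0.469, adjusted p = 0.447). Both stood above every control array. The second tested probe of *Snrpn* gave 0.53. Within the slide that held all 3 groups, and with the slide as a block, the differences were 0.58 for *Gnas* and 0.67 for *Snrpn*. Under the 29 alternatives they ran from 0.22 to 1.63 for *Gnas* and from 0.39 to 1.46 for *Snrpn*. The lowest were 0.22 for *Gnas* with the authors' log2 values and 0.39 for *Snrpn* after quantile normalization. The groups did not overlap in 4 members (14.3%: *Sgce*, *Gnas* and *Snrpn* higher, *Cdkn1c* lower), where 23.5% of all probes did not overlap. The lowest difference was that of *Cdkn1c*, at -0.99, followed by *Mkrn3*, which read -2.92, -2.76 and -1.53, at -0.78 and *Peg3* at -0.77. *Ascl2* differed by 0.09 with an interval of -0.70 to 0.89, and *Peg12* by -0.14 with an interval of -1.33 to 1.05, with the outlier spot left out. The median of the members was 0.33 and that of all probes tested 0.19. Each of these differences shares its control arrays with those of the Hottip gRNA group.

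Set directly against the arrays labelled Hoxa13 gRNA, the Hottip gRNA arrays were higher in *Ascl2* and *Peg12*, 2 of 28 tested members, where 0.381% of all probes were called. *Ascl2* differed by 2.29 (SE 0.357, 95% interval 1.49 to 3.08, adjusted p = 0.0324). *Peg12* differed by 2.96 (SE 0.508, n = 4 and 2, adjusted p = 0.0486), and with its outlier spot kept by 2.15 (adjusted p = 0.25), since that value of -1.32 lies among the Hottip gRNA values. Both values used for *Peg12* on the arrays labelled Hoxa13 gRNA were below the lowest signal well above background on their arrays, and without the filter on dim probes neither call held (adjusted p = 0.0763 for *Ascl2* and 0.108 for *Peg12*). Within the slide that held all 3 groups, where 1 array labelled Hoxa13 gRNA remained, *Ascl2* differed by 2.37 (adjusted p = 0.274) and *Peg12* by 2.60 (adjusted p = 0.308), and with the slide as a block the differences were the same (adjusted p = 0.111 and 0.275). With 1 array in that arm, the lost calls do not show a smaller difference. Both calls were also lost when any one array labelled Hoxa13 gRNA, control replicate 2 or Hottip gRNA replicate 2, 3 or 4 was left out, with *Ascl2* between 2.12 and 2.46 and *Peg12* between 2.60 and 3.31. *Calcr* differed by -1.49 (adjusted p = 0.129), *Snrpn* by -0.98, *Gnas* by -0.91 and *Peg3* by 1.42 (adjusted p = 0.384), and none of these passed the test. The groups did not overlap in 4 members (14.3%), where 17.4% of all probes did not overlap. The members' median was 0.03 and that of all probes tested -0.26.

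A further 25 imprinted genes outside the 39 members all had a probe, and 15 were tested. Hottip gRNA and control did not overlap in 5 of the 15 (33.3%), 2 higher and 3 lower, beside the 13.2% of all probes. None was called by limma in any of the 3 comparisons, where 0.718%, 0.175% and 0.381% of all probes were called. An unadjusted p under 0.05 was seen in 2 between Hottip gRNA and control. It was seen in 0 between the arrays labelled Hoxa13 gRNA and control and in 2 between the 2 guide groups. Between Hottip gRNA and control the largest differences were 1.25 for *Sfmbt2* (adjusted p = 0.492), a Polycomb-related gene, and -0.89 for *Inpp5f* (adjusted p = 0.705). Their median was -0.33. Between the arrays labelled Hoxa13 gRNA and control the range ran from -0.92 (*Ddc*) to 0.67 (*Nap1l4*), and between Hottip gRNA and the arrays labelled Hoxa13 gRNA from -1.002 (*Nap1l4*) to 1.43 (*Tspan32*).

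Genes that keep imprints through cell division were measured as well, since they act on all clusters. These 10 genes, among them *Zfp57*, *Trim28*, *Dnmt1* and *Uhrf1*, were all tested, and 0 were called by limma in any comparison. Between Hottip gRNA and control, 0 had an unadjusted p under 0.05, and their differences ran from -0.36 (*Arid4b*) to 0.32 (*Trim28*, the co-repressor that ZFP57 recruits). *Zfp57* differed by -0.13 and *Dnmt1*, the maintenance methyltransferase, by -0.09. On the arrays labelled Hoxa13 gRNA, *Trim28* stood above control by 1.12 (adjusted p = 0.447), the one gene of the list with an unadjusted p under 0.05, and *Dppa3* differed by -0.26. Set against those arrays, Hottip gRNA ranged from -0.80 (*Trim28*) to 0.30 (*Dppa3*).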

How the data were processed

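Expression was measured on 10 Agilent 1-colour arrays (Hottip gRNA 4, Hoxa13 gRNA 3, control 3), and groups were taken from the sample titles. The authors deposited scanner files with spot intensity values (Feature Extraction 11.5.1.1), in which the processed signal is background-subtracted, with correction for trends across the array on all but Hottip gRNA replicates 3 and 4. Deposited log2 values of the same arrays served as an alternative. The submitters' processing notes name limma, and how the log2 values were made is not given in the sources used here.

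Of 62976 spots per array, 59305 were not control spots. From log2 of the processed signal the 75th percentile of each array was subtracted, outlier spots were left out, and spots of a probe were averaged. Probes were named through RefSeq accessions (27656 of 55681 probes, 20972 genes). Coordinates are those of the RefSeq promoters (GRCm38.p6), and none come from the files, whose header gives mm9. Groups were fitted over all 10 arrays by lmFit and eBayes of limma 3.58.1 (R 4.3.3), with Benjamini-Hochberg adjustment over probes well above background on at least 3 arrays. A gene was called at an adjusted p under 0.05. Two-sided exact permutation was added for single genes. The script was tested on simulated data.

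The members and lists were chosen with earlier results of these data known. Every member was named. Values of each array were given for members that were called, did not overlap between Hottip gRNA and control, or had one of the 3 largest differences in each direction of a comparison. *Dcn* was given in addition after its values were seen, as were the single members of the imprint maintenance list beyond the largest differences. Alternatives concerned normalization, background correction (normexp, offset 50, on median signals), filter, probe, slide, local brightness (11 by 11 spots), replicate block, samples in the fit and each array left out. Those on outlier spots, the percentile, eBayes over tested probes, the row of the slide and detrending were chosen after seeing the data. The number of arrays and the signal over background limit the precision.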

Additional observations from a re-analysis of the deposited data

Results flagged for a closer look

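*Ascl2* and *Peg12* differed between the groups given the 2 guide pools, each measured against the same control arrays. The difference between the 2 effects was 2.29 for *Ascl2* (adjusted p = 0.0324, limma) and 2.96 for *Peg12* (adjusted p = 0.0486), with 3 of 3 and 4 of 4 Hottip gRNA values above the used values labelled Hoxa13 gRNA. For *Peg12* this rests on leaving out 1 outlier spot, both values used on the arrays labelled Hoxa13 gRNA were not well above background, and the gene passed the filter through the Hottip gRNA arrays (adjusted p = 0.108 with no filter, and 0.0763 for *Ascl2*). Within the slide that held 1 array labelled Hoxa13 gRNA, the differences were 2.37 for *Ascl2* and 2.60 for *Peg12*, a comparison too small to test their stability. The arrays labelled Hoxa13 gRNA did not show the targeted gene above background, so the difference is one between labelled groups. In 20 members with 4 Hottip gRNA values, among them *Peg12*, no array stood apart by Dixon's test. *Ascl2* was not tested in this way, since its spot on Hottip gRNA replicate 1 had been left out as an outlier. With 4 values the test can flag only an extreme array, so its result does not show that the arrays were alike.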

How the results depend on the processing

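Under the 29 alternatives no called difference changed sign. Between the arrays labelled Hoxa13 gRNA and control, 0 members were called under each of them. Between Hottip gRNA and control (2 members called), the count was 4 after quantile normalization (*Ascl2*, *Peg12*, *Peg10* and *Sgce*), 1 after median centring, with the authors' log2 values, within the slide that held all 3 groups, with only the 2 groups fitted, with the mean of a gene's probes or with outlier spots kept, and 0 with a filter on all 10 arrays or without the 2 arrays that were not detrended. Leaving out each array gave 0 to 2. Between Hottip gRNA and the arrays labelled Hoxa13 gRNA (2 called), the count was 1 after quantile normalization, with the authors' log2 values, the local median subtracted, only the 2 groups fitted, an intensity trend, the mean of probes or outlier spots kept, and 0 with no filter, with slides as a block or 1 slide alone, after median centring, with the filter on all 10 arrays, the percentile without outlier spots or the 2 arrays that were not detrended left out. Leaving out each array again gave 0 to 2. The filter on all 10 arrays leaves *Peg12* untested. For the other alternatives the cause was not tested. Adjusted p ran from 0.00226 to 0.336 for *Ascl2* and from 0.00197 to 0.299 for *Peg12* in the comparison with control. Same-numbered arrays did not deviate together (9 correlations from -0.310 to 0.0844, others from -0.418 to 0.418), so the numbers are not taken as pairs. Between Hottip gRNA and control, the correlations ran from -0.111 to 0.418 within a row of the slide and from -0.418 to -0.0712 across rows. With the row as a block, *Ascl2* differed from control by 2.38 (adjusted p = 0.0165, limma) and *Peg12* by 2.93 (adjusted p = 0.0154). With the replicate number as a block, 0 members were called in each comparison, with *Ascl2* at 2.44 and *Peg12* at 2.78 against control, and calls over all probes fell from 164 to 13, from 40 to 2 and from 87 to 8. The block also takes Hottip gRNA replicate 4, which has no partner, out of the differences, and leaving out that array alone already gave 0 members called in each comparison, with *Ascl2* at 2.37 and *Peg12* at 2.78 against control.

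The median of the members stayed between 0.03 and 0.54 (Hottip gRNA minus control), between -0.10 and 0.39 (labelled Hoxa13 gRNA minus control) and between -0.28 and 0.36 (Hottip gRNA minus labelled Hoxa13 gRNA), so the last 2 changed sign. The scaling moved the median of all probes as well, from -0.03 to 0.22 with median centring in the first comparison, from 0.19 to -0.23 with the percentile over detected probes in the second and from -0.26 to 0.09 with it in the third. The median of *Mest* and *Copg2* against control (0.07) was 0.45 with median centring and -0.18 with the authors' log2 values. On the arrays labelled Hoxa13 gRNA (0.43) it was 0.0723 after quantile normalization, 0.0261 with the percentile over detected probes, 0.0187 with the authors' values, 0.20 with normexp, -0.37 with the local median subtracted and 0.0783 with the mean of probes. Between Hottip gRNA and the arrays labelled Hoxa13 gRNA (-0.36) it was -0.0813 after quantile normalization, -0.0661 with median centring, -0.0234 with the percentile over detected probes and 0.40 with the local median subtracted. That of the *Snrpn*-*Ube3a* members in this comparison (-0.25) was 0.63 with the authors' values.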

Other observations

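Probes of one gene did not always give like values. *Mkrn3* differed between Hottip gRNA and control by 0.11 at its brightest probe and by 1.34 at the second (adjusted p = 0.765, limma). *Dlk1* differed between the arrays labelled Hoxa13 gRNA and control by -0.57 at the brightest probe, with 1 control spot used, and by 1.17 at the second (adjusted p = 0.447). For *Impact* the same comparison gave 0.50 and 1.24, and for *Peg3* it gave -0.77 and -1.43. None of these passed the test, and no member had a second probe that was called in any comparison.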
